A study of Mus musculus with 3 samples.

Results

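Strong isolated peaks of Tex10 are single sites of high score that stand apart from every other peak on their chromosome. Tex10 was mapped by chromatin immunoprecipitation followed by sequencing (ChIP-seq), in which DNA crosslinked to a protein is pulled down with an antibody and read. Members were chosen by position and by the deposited score, from the list of FLAG-Tex10 peaks in 3 steps. Peaks on the 19 autosomes were kept, neighbours less than 12500 bp apart were joined, and the peaks that stayed alone with a score of at least 10 were selected. This left 514 peaks of 5189 in the list. Positions are those of the file, in the mouse build mm9. They are 14.2% of the 3618 isolated autosomal peaks and are set here against the other 3104, whose scores were lower.

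J1 mouse embryonic stem (ES) cells (strain 129SV) were grown on gelatin in serum with leukaemia inhibitory factor, and all of them carried a piggyBac transgene for 3xFlag-Tex10. The tagged protein was therefore expressed ectopically, from a transposon vector, in a line that the labels call T10F10. Its 3 libraries are 1 FLAG immunoprecipitation, 1 control with normal mouse IgG and 1 input, with no replicate. A peak list was used for the FLAG library, whereas input and IgG were not analysed here. Every value below describes how the peaks of 1 library are arranged, and the spread between experiments is unknown.

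Tex10 is a nuclear protein that works with Pelp1, Wdr18, Senp3 and Las1l in the maturation of the large ribosomal subunit. In ES cells it is also known as a partner of the pluripotency factor Sox2 and as a factor at super-enhancers, long stretches of densely bound enhancers next to genes of cell identity. Isolated peaks are defined within this list alone, as peaks with no second peak close enough to be joined with them. Whether any of them lies inside a super-enhancer was not tested. The series is named for the part of Tex10 in super-enhancer activity, and the isolated peaks show what the list holds outside grouped sites.

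The deposited number of each peak has no header and is called a score here. Neither its scale nor the peak caller is stated in the labels or the file, so it serves only to rank and select peaks within this list. The score chose the members, so their scores are a description. Widths come from the same peak calls and are treated in the same way. With 1 library, no test between strong and weaker isolated peaks was made. The range over the 19 autosomes is given in its place, together with exact binomial 95% intervals of medians, which treat peaks as independent.

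Isolated peaks were strong about as often as grouped ones. Of the 5120 autosomal peaks, 14.2% had a score of at least 10, which is the background against which the isolated peaks are read. Isolated peaks reached that score in 14.2% of cases (514 of 3618). Peaks in pairs reached it in 13.1% (123 of 938), and peaks in stretches of 3 or more in 16.3% (92 of 564). The share for all 1502 peaks that were not isolated was 14.3%. The shares for single peaks and for all grouped peaks were thus nearly equal in this list.

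The same held along the score range up to its top. Isolated peaks made up 70.7% of all autosomal peaks. They were 67.9% of the 336 peaks that scored at least 15 and 68.8% of the 192 that scored at least 20. At a score of at least 50 they were 71.8% of 71 peaks, and at a score of at least 100 they were 75.9% (22 of 29). The highest-scoring autosomal peaks in the list were thus mostly single ones, in about the proportion that single peaks have in the whole.

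Most members lay close to the threshold, with a long tail above it. The middle member scored 14.0, the quartiles were 11.5 and 20.4, and 10% of them scored above 48.5. Scores from 10 to under 15 accounted for 286 members (55.6%), and scores from 15 to under 20 for 96 (18.7%). A further 81 scored from 20 to under 50, 29 from 50 to under 100, and 22 at least 100. The weaker isolated peaks had a median of 4.77, with quartiles of 3.64 and 6.35. The strongest member, at 302, was second on the autosomes to a peak of 317 that belonged to a pair.

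The threshold cut through a continuous range of scores. The lowest score among members, 10.01, was shared by 5 peaks on chromosomes 1, 11, 12, 15 and 16. The 3 that come first by chromosome lay at chr1:38996474-38996771, chr11:72389844-72390242 and chr12:113749368-113749673, with widths of 298, 399 and 306 bp. Just below the threshold, a peak at chr1:104524668-104525015 scored 9.96 and was 348 bp wide. Peaks at chr4:119211972-119212315 and chr16:9083906-9084168 both scored 9.91, with widths of 344 and 263 bp. No gap in score or width separated peaks on either side.

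Exactly repeated scores were rarer among members, which are fewer and spread over a wider range of scores. Such a set repeats values less often by itself, so these counts are a description only. Of the 514, 255 (49.6%) shared their score with another isolated peak, against 2679 of the 3104 weaker ones (86.3%). The most frequent value among members, 10.9, was held by 17 peaks, and the next, 12.04, by 14. Among weaker isolated peaks the most frequent value, 4.05, was held by 117. At a score of at least 20, 22 of 132 members shared a value.

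The 15 members with the highest scores lay on 11 of the 19 autosomes. The first was a peak of 1172 bp at chr18:83712715-83713886, with a score of 302. It was followed by a peak of 855 bp at chr4:150978580-150979434, with a score of 228, and by one of 518 bp at chr8:14072451-14072968, with a score of 204. These 3 lay 543, 291 and 57.2 kb from their nearest peaks. Those nearest peaks scored 3.39, 8.79 and 13.5, far below the scores of the 3 members.

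The next sites had scores between 169 and 192 and were mostly about 500 bp wide. A peak of 453 bp at chr12:44073716-44074168 scored 192 and was the most remote of the 15, with its nearest peak 1243 kb away. Chromosome 9 held a peak of 560 bp at chr9:35112701-35113260 that scored 184, and one of 491 bp at chr9:21754727-21755217 that scored 169. A peak at chr7:6362696-6363214 (519 bp) scored 180, and a wider one at chr19:4988696-4989415 (720 bp) scored 172. The last of these lay in a populated region, with 17 other peaks within 1 Mb on either side, whereas the first peak of chromosome 9 had 1 such neighbour.

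Chromosome 15 contributed 2 sites of nearly equal size and score. One spanned 457 bp at chr15:72398953-72399409 and scored 146, and the other spanned 455 bp at chr15:84659810-84660264 and scored 144. The nearest peak of the first, 121 kb away, itself scored 79.7, the highest score of any nearest peak in this set. The second had a peak of score 2.29 at 24.1 kb.

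The remaining sites among the 15 scored from 116 to 131 and were 434 to 5964 bp wide. Peaks at chr7:27274529-27274991 (463 bp, score 131), chr4:152173502-152174007 (506 bp, score 119) and chr2:32873532-32873965 (434 bp, score 117) were of the common size. The last, at chr13:55072042-55072657, was 616 bp wide with a score of 116 and had its nearest peak at 21.7 kb. A peak at chr17:39979874-39985837 spanned 5964 bp with a score of 125, and no other member was wider than 1172 bp. Whether the sequence under that 5964 bp peak is present in many copies in the genome was not tested. Whether IgG or input reads were also high at any of these sites was not tested.

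Strong isolated peaks were wider than weaker ones on every autosome. Their median width was 391 bp (95% interval 381 to 397), with quartiles of 335 and 470 bp. The weaker isolated peaks had a median of 295 bp (291 to 299), with quartiles of 245 and 372 bp. Over the 19 autosomes the median ranged from 362 to 489 bp for strong and from 278.5 to 320 bp for weaker peaks, so the chromosome medians did not overlap. The narrowest width in the list, 224 bp, was that of 444 weaker isolated peaks (14.3%) and of 0 members, which began at 244 bp. In the whole set of isolated peaks, width and score had a Spearman correlation of 0.33 (n = 3618), which is across peaks of 1 library.

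The share of strong peaks was lowest among the narrowest isolated peaks and highest among the widest. It was 2 of 419 (0.48%) for isolated peaks of 225 to 249 bp and 6.25% of 800 for those of 250 to 299 bp. It reached 16.6% of 655 at 300 to 349 bp and 27.0% of 463 at 350 to 399 bp. Wider peaks had shares of 26.0% (400 to 499 bp, n = 466) and 25.8% (500 to 699 bp, n = 279), and the 92 peaks of at least 700 bp had 38.0%. Most wide isolated peaks were therefore still below a score of 10.

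**Figure D1:**
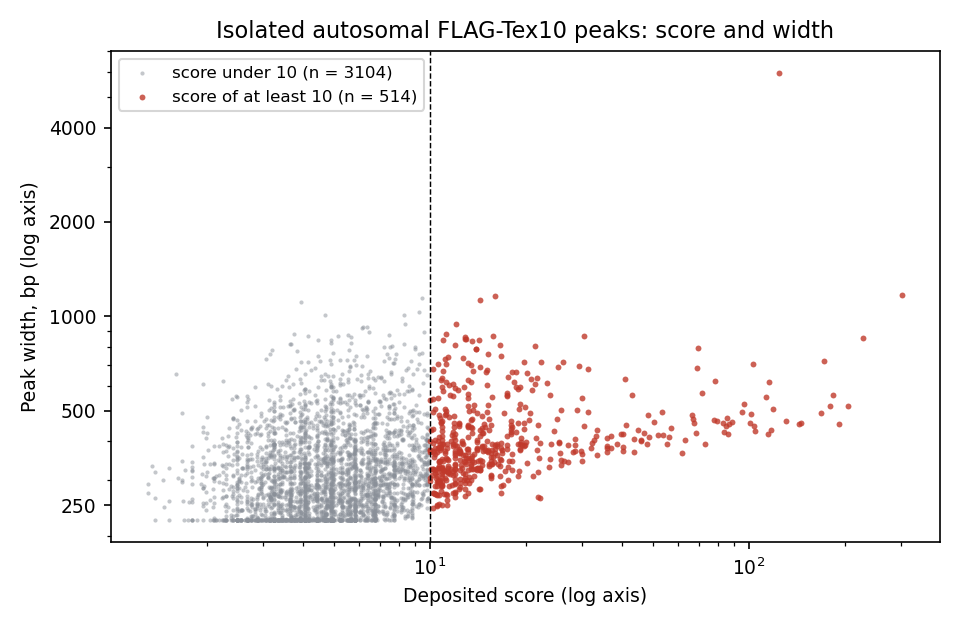
Each point is 1 isolated autosomal peak, with its deposited score on a log axis and its width in bp on a log axis. The 514 members lie right of the dashed line at a score of 10. Above a score of 50 the narrowest peak is 366 bp wide and 39 of 51 lie from 400 to under 600 bp, and the point far above the others is the peak of 5964 bp on chromosome 17.

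Among the members themselves, the median width was larger in each higher band of score. It was 366.5 bp for scores from 10 to under 15 and 390.5 bp for 15 to under 20. It was 403 bp for 20 to under 50, 458 bp for 50 to under 100 and 498.5 bp for at least 100. The narrowest member of each of these bands was 244, 273, 263, 366 and 422 bp wide. These bands hold 286, 96, 81, 29 and 22 peaks, and a smaller band reaches its extremes less often. The widest member of each band, leaving out the peak of chromosome 17, was between 793 and 1172 bp.

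Most isolated peaks that scored at least 50 were between 400 and 600 bp wide. Of these 51, 39 (76.5%) were at least 400 and under 600 bp wide, 3 were narrower and 9 were wider. Among the 463 members below 50, 124 (26.8%) had that width, 283 were narrower and 56 were wider. In the band from 50 to under 100 the quartiles were 422 and 483 bp, a range of 61 bp, against 125.75 bp for scores from 10 to under 15. In the band of at least 100 they were 455.5 and 602 bp, a range of 146.5 bp, so the spread of widths did not shrink steadily with score. A member of score 302 was about as wide as members of score 16.0 (1162 bp, chr8:119197425-119198586) and 14.4 (1127 bp, chr19:40968711-40969837), the next widest, picked with their values known.

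**Figure D2:**
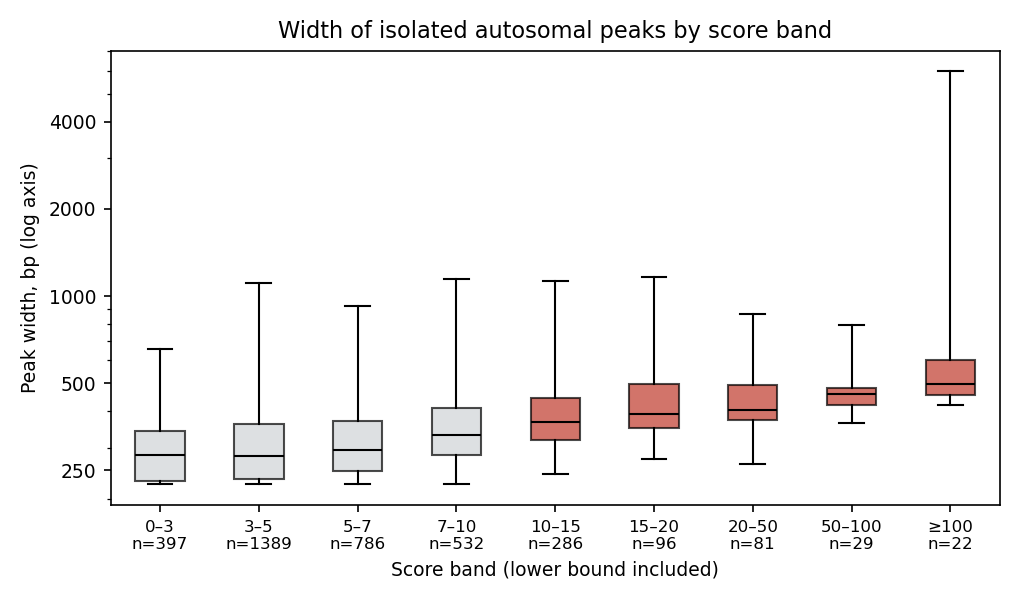
Boxes give the median and quartiles of the width in bp (log axis) of isolated autosomal peaks in 9 bands of score, and whiskers run from the narrowest to the widest peak. Red boxes are the members. The median climbs from 366.5 bp in the band from 10 to 498.5 bp in the band from 100, and the box is shortest for scores from 50 to under 100.

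Strong peaks that belonged to groups were wider than strong peaks that stood alone. The 123 strong peaks in pairs had a median width of 429 bp (95% interval 413 to 472) and the 92 in stretches of 3 or more had 513.5 bp (419 to 590). The 514 members, at 391 bp, lay below both. Median scores were closer, at 14.0 for members, 14.9 for strong peaks in pairs and 15.4 for those in stretches. Grouped peaks of all scores were wider too. Their median widths were 321 bp in pairs and 334 bp in stretches, against 310 bp for all isolated peaks. A peak caller can also join adjacent enriched sites into 1 wide peak, and the part of such joining in these widths was not tested.

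Members occurred on every autosome, at densities that differed by several times. Their density over all autosomes was 0.208 per Mb. Chromosome 8 had the highest, 0.342 per Mb (45 members), and chromosome 3 the lowest, 0.0877 per Mb (14 members). Chromosome 2 held the most members, 53 (0.292 per Mb), and chromosome 18 the fewest, 11 (0.121 per Mb). Chromosomes rich in weaker isolated peaks were also rich in members, with a Pearson r of 0.72 and a Spearman rho of 0.78 between both densities over the 19 autosomes, which share 1 library and its depth.

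The share of isolated peaks that were strong varied less. It had a median of 13.8% over the autosomes and lay between 11% and 18% on 17 of them. The exceptions were chromosome 3, with 8.0% (14 of 175), and chromosome 2, with 18.5% (53 of 286). Chromosome 8, the densest in members, had 15.8% (45 of 285), close to the whole, and chromosome 11, with as many isolated peaks per Mb (2.17 against 2.16), had 11.7% (31 of 265). The share had a Pearson r of 0.19 and a Spearman rho of 0.27 with the density of isolated peaks over the same 19 autosomes.

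**Figure D3:**
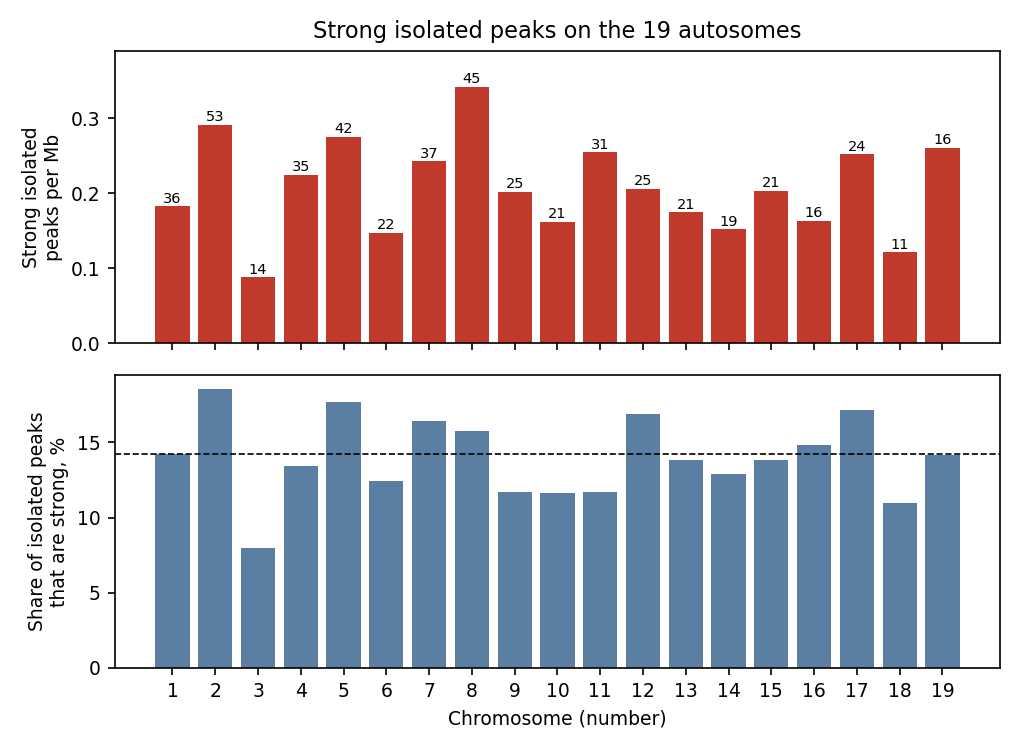
The upper bars give strong isolated peaks per Mb of each autosome, with their number above the bar, and the lower bars give the percentage of isolated peaks that are strong, with a dashed line at the value for all autosomes (14.2%). Chromosome 8 is highest in density and chromosome 2 in share, and chromosome 3 is lowest in both.

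The highest scores were spread over many chromosomes. Members scoring at least 100 lay on 14 autosomes, with at most 3 on any of them (chromosome 15). Members scoring at least 50 lay on 17 autosomes, and chromosomes 2 and 4 had the most, with 7 each. On chromosomes 1 and 10, with 36 and 21 members, no member exceeded scores of 43.8 and 25.8. The median score of members per chromosome ranged only from 12.2 on chromosome 13 to 18.8 on chromosome 6.

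Along the chromosomes, members were divided much as weaker isolated peaks were. Beyond the midpoint of their chromosome were 282 members (54.9%) and 1722 weaker isolated peaks (55.5%). The share beyond the midpoint was higher for members on 8 autosomes and lower on the other 11. Chromosome 4 was the most one-sided, with 31 of 35 members (88.6%) in its distal part, against 152 of 226 weaker isolated peaks (67.3%). On chromosome 16 most lay in the proximal part, with 4 of 16 members (25%) and 26 of 92 weaker peaks (28.3%) beyond the midpoint.

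The distance from a member to its nearest peak was similar to that of weaker isolated peaks. The rule sets this distance to at least 12500 bp and says nothing of it above that. Members had a median of 121 kb (95% interval 94.6 to 142), with quartiles of 40.4 and 312 kb. Weaker isolated peaks had 99.2 kb (94.8 to 108), with quartiles of 44.8 and 254 kb. The intervals overlap, and the median was larger for members on 10 of the 19 autosomes, so no difference beyond the spread over chromosomes was seen.

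The distributions of distances crossed. Within 25 kb of another peak lay 71 members (13.8%) and 351 weaker isolated peaks (11.3%). At least 250 kb from any other lay 157 members (30.5%) and 781 weaker peaks (25.2%), and at least 500 kb away lay 69 (13.4%) and 347 (11.2%). The longest distances were thus somewhat more common among members, and so were the shortest. Among members, the median was 106 kb for scores from 10 to under 15, 159 kb for 20 to under 50 (95% interval 97.9 to 227) and 102 kb for at least 100, so it did not climb steadily with score.

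**Figure D4:**
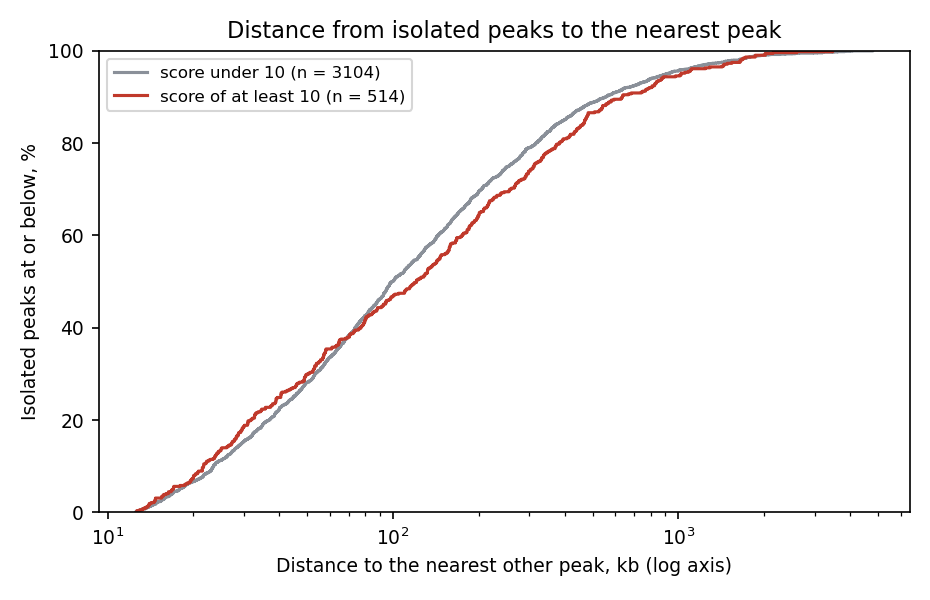
Curves give the cumulative percentage of isolated peaks whose nearest other peak lies at or below the distance on the x axis (kb, log axis), in red for the 514 members and in grey for the 3104 weaker peaks. Red lies above grey at short distances and below it between 100 and 1000 kb, with medians of 121 and 99.2 kb.

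A small number of members were far from everything else in the list. No peak lay within 1 Mb of 28 members (5.45%), and the same was true of 133 weaker isolated peaks (4.28%). The most remote member, chosen after its values were seen, was a peak of 424 bp at chr3:112893812-112894235 with a score of 68.1, whose nearest peak lay 3471 kb away. A peak of 560 bp at chr7:10910652-10911211, with a score of 43.0, had its nearest peak at 2597 kb, and one of 266 bp at chr7:46711261-46711526, with a score of 21.8, at 2143 kb. The peaks nearest to these 3 scored 4.45, 2.89 and 2.48.

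Most members had weaker peaks in their wider neighbourhood. Within 1 Mb on either side the median number of other peaks was 7 (quartiles 3 and 11) for members and 6 (3 and 10) for weaker isolated peaks. The nearest peak of a member was itself isolated in 441 cases, of which 76 were other members and 365 weaker peaks. It belonged to a pair in 56 cases (10.9%) and to a stretch of 3 or more in 17 (3.31%). For weaker isolated peaks these shares were 11.8% and 3.87%, close to those of members.

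Strong isolated peaks had strong nearest neighbours slightly more often than weaker isolated ones. The nearest peak scored at least 10 for 88 members (17.1%) and for 414 weaker isolated peaks (13.3%), beside 14.2% of all autosomal peaks. Neighbouring members share a region, members nearest to each other are both counted, and this difference was not tested. The median score of the nearest peak was 5.30 for members and 4.99 for weaker peaks. Grouped peaks showed the same direction. Their nearest peak scored at least 10 for 16.3% of strong peaks in pairs and 32.6% of those in stretches of 3 or more. Among all peaks in pairs and in stretches the shares were 13.1% and 17.4%.

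Distances between members depend on how many members there are, and they were not compared with those of another set. The median distance from a member to the nearest other member was 979 kb, with quartiles of 323 and 2347 kb, and 56 members (10.9%) had none within 5 Mb. Another member lay within 50 kb of 30 of them. The closest pair lay 12.7 kb apart on chromosome 1, at chr1:137082544-137082917 (score 10.03) and chr1:137095582-137096074 (score 14.0), just beyond the joining distance. On chromosome 8, peaks at chr8:86978527-86978835 (score 21.0) and chr8:86995180-86995546 (score 25.7) lay 16.3 kb apart. Both pairs were picked with their values known, and a joining distance of 25 kb would have grouped them.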

How the data were processed

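The deposited file is a peak list of 1 FLAG ChIP-seq library, with mm9 positions and, per peak, a score as the authors deposited it. Libraries were read as 100 bp single-end reads on an Illumina HiSeq, per the labels' protocols. The submitters' processing notes name mm9 as the build and list, without their roles, bedtools 2.18.1, SAMtools 0.1.19, Bowtie 1.0.0 and FastQC 0.10.1. The peak caller, its control and its threshold are not stated in the labels or the file. The list holds no read counts, so depth is unknown. A list past a threshold depends on depth.

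Starts are printed 1-based. Peaks were joined where the start minus the highest earlier end was under 12500 bp. Chromosome lengths came from GenomeInfoDb 1.38.1 (R 4.3.3), and values were computed with Python 3.11.15, numpy 2.4.6, pandas 2.3.3 and scipy 1.17.1. Intervals of medians are exact order-statistic intervals. The code for the selection was checked on 20 simulated lists built with the same joining distance and threshold, and it returned every planted member in 20. This checks the code only. Members and measures were chosen with earlier results of these data known. Named by rule were the 15 highest members and those next to the threshold. The widest, most remote and mutually closest members were named with their values known. Promoters, genes, repeats, CpG content, motifs and sequences were not analysed here, since no mm9 genome or annotation was used and the reference tables are of another build.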

Additional observations from a re-analysis of the deposited data

How the results depend on the processing

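The wider median of strong isolated peaks kept its direction under all 9 alternatives, with a difference from weaker peaks of 78.5 to 118.5 bp (96 bp as reported). The larger median distance to the nearest peak also kept its direction, but its size ranged from 9.40 to 36.4 kb (21.6 kb as reported). All alternatives reuse peaks of the same list, so a kept direction is not independent support. For the distance, the median was larger for members on only 10 of the 19 autosomes. Of the alternatives, 50 kb joining, adding X and Y and leaving out the narrowest width were chosen after seeing the data, as were all alternatives for the width difference, distances and shares. A score of at least 15 gave 228 members, a median width of 421.5 bp and a share of 6.30%, and a score of at least 7 gave 1046, 364.5 bp and 28.9%, which follows from the threshold. Joining at 5, 25 and 50 kb gave median distances of 94.3, 157 and 202 kb, which follows from the minimum that joining sets. Without peaks of the narrowest width the share was 16.2%, because only weaker peaks were removed. Leaving out chromosome 8 or scores of at least 100 gave 469 and 492 members and median widths of 388 and 385 bp. Alternatives that needed promoters, CpG content or motifs on mm9 were not run. No paired analysis was possible because there is a single library per antibody. Depth limits which peaks passed the unknown threshold of the list.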
